A study of Mus musculus with 6 samples.

Results

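The plasminogen system and the regulators of blood coagulation were followed through 9 genes, Plau, Plat, Plaur, Serpine2, F3, Tfpi, Tfpi2, Thbd and Procr, in 6 primary mouse lung tumour lines. The genes were chosen by symbol, and every array probe assigned to one of these symbols was taken. The array text files carried no symbol column, so a probe received its symbol when its transcript accession matched a RefSeq table of assembly GRCm38.p6. All 9 genes were found, with 15 of the 41174 non-control probes.

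The study set 3 lines labelled SMC against 3 lines labelled non-SMC, an abbreviation that the labels do not spell out. All 6 lines were grown from lung tumours of C57BL/6J mice that carried the conditional alleles Rb1L/L and Trp53L/L, a model of small cell lung carcinoma, so both groups share these alleles. The labels join the lines into 3 pairs of 1 SMC and 1 non-SMC line. The labels call the mice of pair 2 male and those of the other two pairs female. No age, no Cre driver and no clone number are given in the sources used here, nor whether the lines of a pair grew from 1 tumour. Each line was measured once on a single-colour Agilent array, and the number of arrays limits the precision of every value.

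Plasmin, the protease that dissolves fibrin and cleaves matrix proteins, is made from plasminogen by the urokinase-type activator Plau or the tissue-type activator Plat. Plaur holds urokinase at the cell surface, and serpins such as Serpine2 inactivate these proteases. Coagulation starts when tissue factor, F3, binds factor VII. It is restrained by Tfpi at that step and by the thrombin receptor Thbd, which with Procr turns thrombin towards activating protein C.

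RefSeq promoter sequences of assembly GRCm38.p6 were matched by symbol for 6 of the 9 genes: Plaur, Serpine2, F3, Tfpi, Tfpi2 and Procr. The 250 bases upstream of the annotated start are shown for 5 of them. Plaur, F3 and Procr are shown as genes with negative differences between SMC and non-SMC lines, and Serpine2 and Tfpi as those with positive ones. Of these differences only that of Plaur passed the threshold given below, and Procr was not tested. Tfpi2, which is not shown, also had a negative difference and was well above background on no array. Capitals mark letters that match an AP-1 site (TGANTCA), a GC box (GGGCGG) or a TATA box (TATAAA), searched on both strands. The regions are chr7:24462233-24462482 on the plus strand for Plaur, chr3:121723287-121723536 on the plus strand for F3 and chr2:155750967-155751216 on the plus strand for Procr. Those of Serpine2 and of the first of 2 Tfpi starts are chr1:79858666-79858915 and chr2:84476760-84477009, both on the minus strand.
Plaur: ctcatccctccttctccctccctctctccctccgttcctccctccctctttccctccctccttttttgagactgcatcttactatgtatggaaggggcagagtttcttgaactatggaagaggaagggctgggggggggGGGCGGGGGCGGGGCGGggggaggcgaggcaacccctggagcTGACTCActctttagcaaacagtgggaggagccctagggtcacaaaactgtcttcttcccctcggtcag
F3: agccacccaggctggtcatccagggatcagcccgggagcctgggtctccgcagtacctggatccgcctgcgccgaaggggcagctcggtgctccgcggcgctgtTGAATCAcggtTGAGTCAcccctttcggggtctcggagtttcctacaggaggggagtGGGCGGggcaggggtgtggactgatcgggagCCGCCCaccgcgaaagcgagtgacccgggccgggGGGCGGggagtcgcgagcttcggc
Procr: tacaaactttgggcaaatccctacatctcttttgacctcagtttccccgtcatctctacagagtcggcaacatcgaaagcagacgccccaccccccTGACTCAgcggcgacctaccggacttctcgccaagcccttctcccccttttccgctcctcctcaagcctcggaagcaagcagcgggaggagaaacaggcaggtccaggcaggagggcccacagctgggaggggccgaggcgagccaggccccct
Serpine2: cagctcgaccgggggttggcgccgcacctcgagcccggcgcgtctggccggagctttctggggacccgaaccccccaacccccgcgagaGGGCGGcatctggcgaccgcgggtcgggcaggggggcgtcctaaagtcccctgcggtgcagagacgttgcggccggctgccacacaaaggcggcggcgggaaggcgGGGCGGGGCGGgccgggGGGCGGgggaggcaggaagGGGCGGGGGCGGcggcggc
Tfpi: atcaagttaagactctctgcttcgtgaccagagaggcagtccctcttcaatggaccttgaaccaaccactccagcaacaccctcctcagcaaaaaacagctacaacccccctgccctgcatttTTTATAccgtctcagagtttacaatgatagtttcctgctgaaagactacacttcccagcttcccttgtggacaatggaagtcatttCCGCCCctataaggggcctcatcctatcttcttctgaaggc

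The Plaur promoter held 1 AP-1 match, 63 to 69 bases upstream of the start, and 3 GC boxes that abut or overlap each other. The F3 promoter held 2 AP-1 matches, at 129 to 135 and 140 to 146 bases upstream, and 3 GC boxes. The Procr promoter held 1 AP-1 match, at 148 to 154 bases, and no GC box. In the Serpine2 promoter there were 6 GC boxes and no AP-1 match, and in that of Tfpi 1 GC box, 1 TATA box and no AP-1 match. The TATA letters of Tfpi lay 122 to 127 bases upstream, on the strand opposite to the gene. The second Tfpi start had 1 GC box. Of the 3 Tfpi2 starts, only the third had matches, with 1 AP-1 match and 2 GC boxes. Over 32851 annotated starts, windows of this length held an AP-1 match in 6.75%, a GC box in 32.7% and a TATA box in 12.4%. The TEAD letters GGAATG, present in 12.6% of those windows, were found in none of the 9 windows of these genes. The stricter AP-1 letters TGACTCA, searched on both strands, occur in 4.46% of the windows of all annotated starts. Plaur, F3 and Procr hold 1 such match each, and Tfpi2 holds none. These matches describe the letters in the window and say nothing of binding in the lines. Whether they go with the direction of a difference was not tested.

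Signals are given on the log2 scale after subtracting the 75th percentile of each array. A difference is the SMC signal minus the non-SMC signal of a pair, averaged and given with the standard error (SE) of a paired fit over 19848 features. A p-value adjusted over all features under 0.05 counted as passing. It measures the spread between 3 pairs of lines, with a variance drawn in part from all features. A probe entered the test if the scanner software called it well above background in all 3 lines of either group. A gene with several such probes was represented by the brightest one. Per array, 64.1% to 68.5% of the probes met that call, and none was saturated. The arrays lay on 3 slides, of which 1 held SMC lines 1 and 2 with non-SMC lines 2 and 3, while non-SMC line 1 and SMC line 3 lay on a slide of their own each. Values within the shared slide are therefore given for each of the 9 genes that could be tested. They set SMC lines 1 and 2 against non-SMC lines 2 and 3 in a fit without the pair term. Only pair 2 lay complete on that slide, so these values ignore the pairing.

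The list means of neuroendocrine, mesenchymal, platelet and smooth muscle markers did not overlap between the groups, and those of endothelial, leukocyte and epithelial markers did. Single markers did not all follow their list mean. The groups overlapped for the neuroendocrine markers Dll3, Calca and Ncam1, the mesenchymal markers Pdgfra, Dcn and Thy1, and the smooth muscle markers Myh11 and Des. All 8 neuroendocrine markers were well above background in each SMC line (list mean 3.78 to 3.90), against 7 or 8 of them in the non-SMC lines (list mean -2.37 to 2.91). Of 9 mesenchymal markers, 5 or 6 were detected in the SMC lines (mean -5.58 to -4.76), against all 9 in the non-SMC lines (mean 2.92 to 3.84). Endothelial markers, of which 3 of 9 were detected per line, averaged -6.52 to -5.86 in SMC lines and -7.18 to -5.55 in non-SMC lines. Of these markers, Pecam1, Cdh5, Tie1, Cldn5 and Emcn were well above background on no array. Vwf and Esam were so on all 6 arrays, Kdr on 4 and Tek on 2. Leukocyte markers, of which 8 were on the array, averaged -6.81 to -5.92 in SMC lines with 3 or 4 detected. In non-SMC lines 1 and 2 they averaged -6.89 and -6.67, and in non-SMC line 3 -2.94, with 7 of 8 detected. Platelet markers averaged -6.33 to -6.19 in SMC lines with 2 of 6 detected, and -5.68 to -3.56 in non-SMC lines with 3 to 5. They did not all go the same way. Ppbp, detected on 3 arrays, was higher in every non-SMC line, and Gp9, detected on 2, in every SMC line. Smooth muscle markers averaged -4.13 to -3.09 in SMC lines and -1.75 to 0.61 in non-SMC lines, with 3 or 4 of 5 detected in each line. Epithelial markers averaged -2.48 to 3.29 in SMC lines with 4 or 5 of 5 detected, and -3.64 to 4.65 in non-SMC lines with 3 or 5. The part of these cell types in the results below was not tested, except where a value is given, and in such bulk samples fewer cells of a type and less RNA per cell cannot be told apart.

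Of the 9 genes, 7 had a probe that could be tested, and 2 of them, Thbd and Plaur, fell in the SMC lines (limma, Benjamini-Hochberg adjusted p = 0.00704 for each). None rose. Over all 19848 features, 602 were lower (3.03%) and 31 higher (0.156%). Plau, Plat and F3 had negative differences between -5.33 and -3.10, and Serpine2 and Tfpi positive ones of 0.75 and 1.97, none of which passed. Procr and Tfpi2 were not tested because neither group was detected on all of its arrays. The plot of the probe signals by line shows tight groups far apart for Thbd and Plaur, and that Plau, Plat and Procr vary by several log2 units among lines of 1 group. The SMC signals of Thbd were not well above background.

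**Figure D1:**
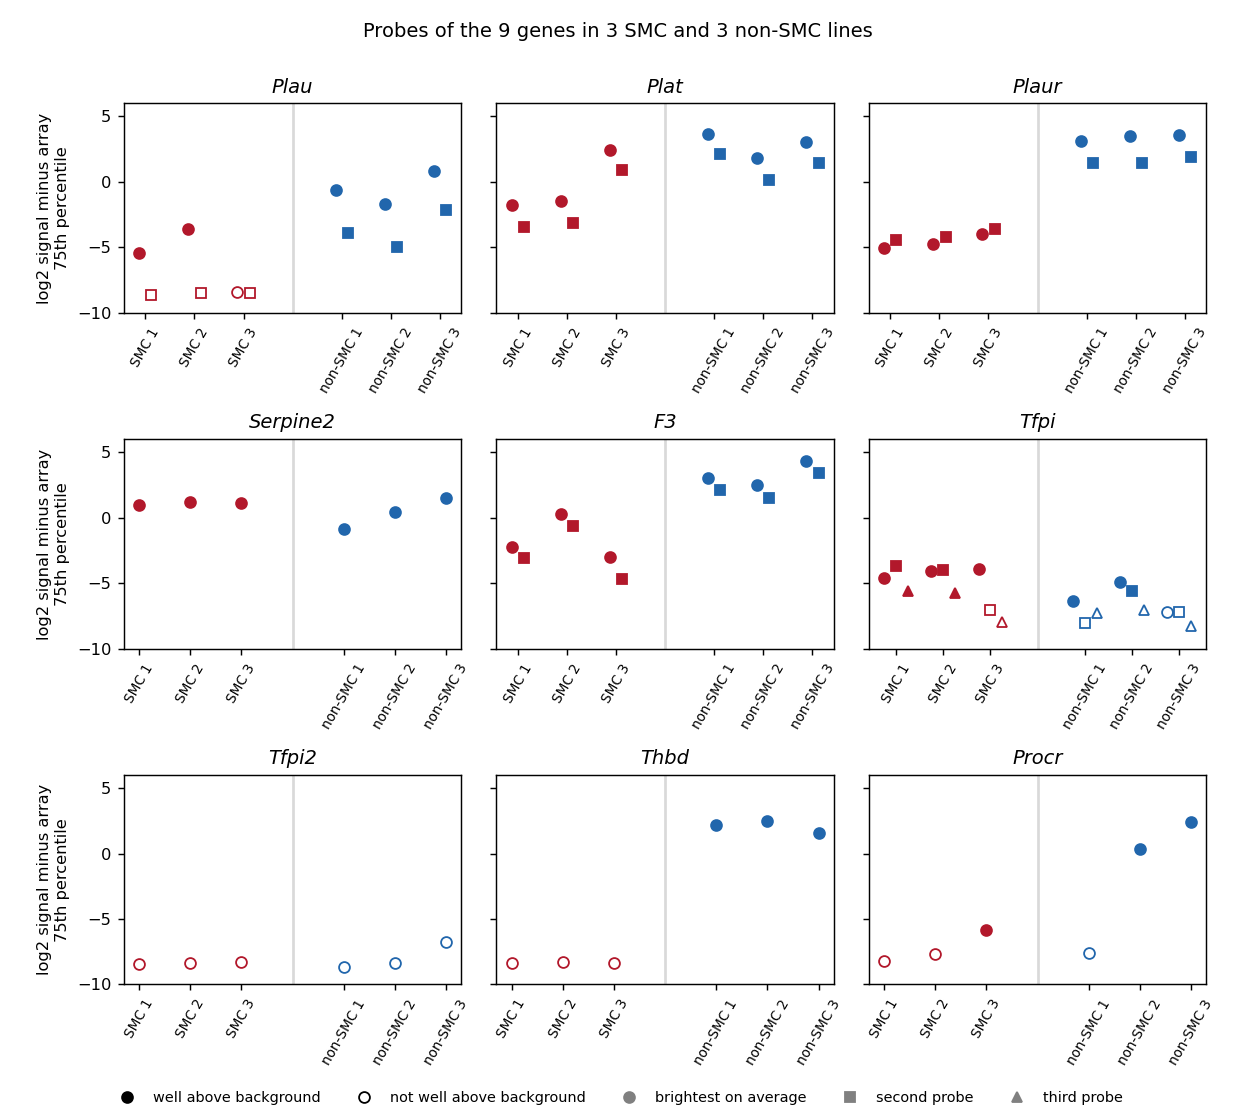
Log2 signal relative to the array's 75th percentile (y axis) of the 15 probes of the 9 genes in each SMC line (red) and non-SMC line (blue), with 1 symbol shape per probe. Open symbols were not well above background; Thbd is open in all 3 SMC lines and lies between 1.59 and 2.47 in the non-SMC lines.

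Plau encodes urokinase. Its brighter probe read -5.43, -3.63 and -8.38 in SMC lines 1, 2 and 3, against -0.58, -1.72 and 0.85 in non-SMC lines 1, 2 and 3. The third SMC value was not well above background, and the groups did not overlap, with 1.90 between the highest SMC and the lowest non-SMC line. Pair by pair the difference was -4.85, -1.90 and -9.22, and the fit gave -5.33 ± 1.52 (SE, 3 pairs, limma adjusted p = 0.142). Its second probe was not well above background in any SMC line (-8.62, -8.46 and -8.49), against -3.94, -5.00 and -2.13 in the non-SMC lines. With every probe fitted as a feature, this second probe differed by -4.83 ± 0.64 and passed (limma adjusted p = 0.0474), in a fit where 3.21% of 26684 features were lower. The values given for second probes of other genes come from the same fit. Its non-SMC mean was also set against the lowest signal well above background on each SMC array, or the probe's own signal where that was higher. By this measure the second probe was 6.09-fold lower in SMC. The measure is not a strict bound, since a probe can read above that level without being called well above background. The second probe did not pass when no background filter was applied (adjusted p = 0.0771). It entered the test through its detection in the non-SMC lines alone, and its SE includes the spread of SMC signals not well above background. Within the shared slide the brighter probe differed by -4.09 (adjusted p = 0.182). Over 20 other settings the difference ranged from -7.04 without pair 2 to -2.77 with normexp background correction. It was -3.38 without pair 3 and passed in none of these settings.

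Plat, the tissue-type activator, was split among the SMC lines. Its brighter probe read -1.79 and -1.47 in SMC lines 1 and 2 but 2.46 in SMC line 3, against 3.65, 1.82 and 3.03 in the non-SMC lines. SMC line 3 thus lay above non-SMC line 2, and the groups overlapped. The second probe followed the same order, at -3.48, -3.11 and 0.90 in SMC lines against 2.10, 0.14 and 1.42 in non-SMC lines. The difference was -3.10 ± 1.03 (adjusted p = 0.168) with the brighter probe and -3.12 ± 1.05 (adjusted p = 0.166) with the other. Pair 3 contributed -0.56, against -5.44 in pair 1 and -3.29 in pair 2. Within the shared slide, which leaves out SMC line 3 and non-SMC line 1, the difference was -4.05 (limma adjusted p = 0.0528). It passed in 1 of 21 other settings, the fit without the pair term and without SMC line 3 (-4.46, adjusted p = 0.0299). SMC line 3 also stood apart in its epithelial markers, which averaged -2.48 there, against 3.29 and 2.81 in SMC lines 1 and 2.

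Plaur, the membrane-anchored receptor of urokinase, was lower in the SMC lines with both of its probes. The brighter probe read -5.06, -4.71 and -4.0 in SMC lines 1, 2 and 3, against 3.13, 3.48 and 3.56 in the non-SMC lines. In scanner units this is 20.9, 22.8 and 30.3 in the SMC lines and 5120, 6380 and 6430 in the non-SMC lines. All 6 signals were well above background, and 7.13 log2 units lay between the groups. The group means were -4.59 ± 0.54 in SMC and 3.39 ± 0.23 in non-SMC lines (SD, n = 3 each). The fitted difference was -7.98 ± 0.31, a 252-fold lower signal, with -8.19 in pair 1, -8.19 in pair 2 and -7.56 in pair 3. The second probe read -4.44, -4.23 and -3.62 in SMC lines and 1.42, 1.47 and 1.90 in non-SMC lines, a smaller difference of -5.69 ± 0.28 that also passed (limma adjusted p = 0.00748). Within the shared slide the brighter probe differed by -8.40 (adjusted p = 0.0069). The call held in 20 of 21 other settings, with differences of -8.58 to -5.92, and was lost when pair 3 was left out (-8.19, adjusted p = 0.0618), a fit in which 0 of 19848 features passed limma's adjusted threshold in either direction (unadjusted p under 0.05 for 924 higher and 1743 lower).

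Serpine2, a serpin that inhibits thrombin, urokinase and plasmin, was detected in every line. Its single probe read 0.99, 1.20 and 1.16 in the SMC lines, against -0.84, 0.42 and 1.52 in the non-SMC lines. The SMC lines lay close together (mean 1.12 ± 0.11, SD, n = 3), the non-SMC lines were spread around them (0.37 ± 1.18, n = 3), and the groups overlapped. Pairs 1, 2 and 3 gave 1.83, 0.78 and -0.37, and the fitted difference was 0.75 ± 0.52 (limma adjusted p = 0.409). It passed in none of 21 other settings, where it ranged from 0.13 to 1.33. It was 0.13 within the shared slide (adjusted p = 0.884).

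F3, tissue factor, is the membrane receptor that starts the extrinsic pathway. Its brighter probe read -2.20, 0.26 and -3.02 in the SMC lines, against 3.0, 2.48 and 4.33 in the non-SMC lines. The scanner signals were 151, 712 and 59.8 in SMC lines and 4680, 3180 and 11000 in non-SMC lines, all well above background. Each SMC line was below each non-SMC line, with a gap of 2.22, but pair 2 differed by only -2.22 while pair 1 differed by -5.20 and pair 3 by -7.35. The fitted difference was -4.92 ± 1.08, a 30.3-fold lower signal that did not pass (limma adjusted p = 0.111). The other probe read -3.07, -0.60 and -4.67 in SMC lines and 2.10, 1.5 and 3.43 in non-SMC lines, with a difference of -5.13 ± 1.24 (adjusted p = 0.115). F3 passed when the pair was taken out of the fit (-4.92 ± 0.95, adjusted p = 0.0404), a fit in which 4.91% of features were lower and 1.38% higher. It also passed without pair 2 (-6.28, adjusted p = 0.0429). Without the pair term, it passed without SMC line 2 (-5.88, adjusted p = 0.0195) or without non-SMC line 2 (-5.32, adjusted p = 0.0392). It did not pass in the other 17 of 21 settings, the shared slide among them (-4.38, adjusted p = 0.167).

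Tfpi, the Kunitz-type inhibitor of factor Xa and of the tissue factor complex, had 3 probes. The probe that could be tested read -4.61, -4.06 and -3.89 in SMC lines, against -6.37, -4.90 and -7.17 in non-SMC lines, of which the last was not well above background. The SMC lines lay above the non-SMC lines by a margin of 0.29. Pair differences were 1.77, 0.84 and 3.29, and the fit gave 1.97 ± 0.57 (limma adjusted p = 0.145). With signals below background set to the floor of their array it was 1.59 (adjusted p = 0.113), and with normexp background correction 0.38 (adjusted p = 0.356). The shared slide gave 1.71 (adjusted p = 0.314). It passed in 1 of 20 other settings, without the pair term and without non-SMC line 2 (2.59, adjusted p = 0.0213). The other 2 probes were detected in SMC lines 1 and 2 and not in SMC line 3, so they were not tested. One of them read -3.69, -3.99 and -7.07 in SMC lines and -8.03, -5.56 and -7.21 in non-SMC lines, where only line 2 was detected. The last read -5.61, -5.76 and -7.94 in SMC lines and -7.27, -7.02 and -8.24 in non-SMC lines, where none was detected. In SMC line 3 the first probe was thus detected where the other two were not.

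Tfpi2, a related Kunitz-type inhibitor whose targets include plasmin, was well above background on no array. Its signals were -8.41, -8.38 and -8.26 in SMC lines, against -8.64, -8.37 and -6.75 in non-SMC lines. At this signal over background no difference was detectable, and without the filter the fit gave -0.43 ± 0.48 (limma adjusted p = 0.699).

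Thbd encodes thrombomodulin, the surface receptor that redirects thrombin from clotting to the activation of protein C. Its single probe read -8.37, -8.27 and -8.38 in the SMC lines, none of them well above background, against 2.18, 2.47 and 1.59 in the non-SMC lines. In scanner units these signals were 2.1, 1.93 and 1.46 in SMC lines and 2660, 3170 and 1650 in non-SMC lines. The groups were 9.86 log2 units apart. Means were -8.34 ± 0.06 in SMC and 2.08 ± 0.45 in non-SMC lines (SD, n = 3 each), and the fitted difference was -10.42 ± 0.32. The SMC spread is that of signals not well above background, and it enters the SE and the adjusted p. Thbd entered the test through its detection in the non-SMC lines alone. Against the lowest signal well above background on each SMC array, Thbd was 333-fold lower there, a measure that is not a strict bound. Pairs 1, 2 and 3 differed by -10.56, -10.74 and -9.97, and the shared slide gave -10.35 (limma adjusted p = 0.00855). The call held in 19 of 20 other settings. The difference was -8.38 once signals below background were set to the floor and -5.39 with normexp background correction, and the call was lost without pair 3 (-10.65, adjusted p = 0.0618).

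Procr, the receptor that presents protein C to the thrombin and thrombomodulin complex, was detected in 1 SMC and 2 non-SMC lines and was not tested. It read -8.18, -7.66 and -5.85 in SMC lines, of which only the third was well above background. In non-SMC lines it read -7.61, not well above background, then 0.32 and 2.38. Pair 1 thus differed by only -0.56, between signals below background, while pair 2 differed by -7.99 and pair 3 by -8.23. Without the filter the fit gave -5.59 ± 1.78 (adjusted p = 0.233). Non-SMC line 1, the line without a Procr signal, was also low in epithelial markers, which averaged -3.64 there, against 4.30 and 4.65 in non-SMC lines 2 and 3. Among the SMC lines, the one with a Procr signal, line 3, had the lowest epithelial mean (-2.48), against 3.29 and 2.81 in lines 1 and 2. The part of epithelial cells was not tested. Thbd, whose product acts with Procr, was well above background in non-SMC line 1 at 2.18.

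**Figure D2:**
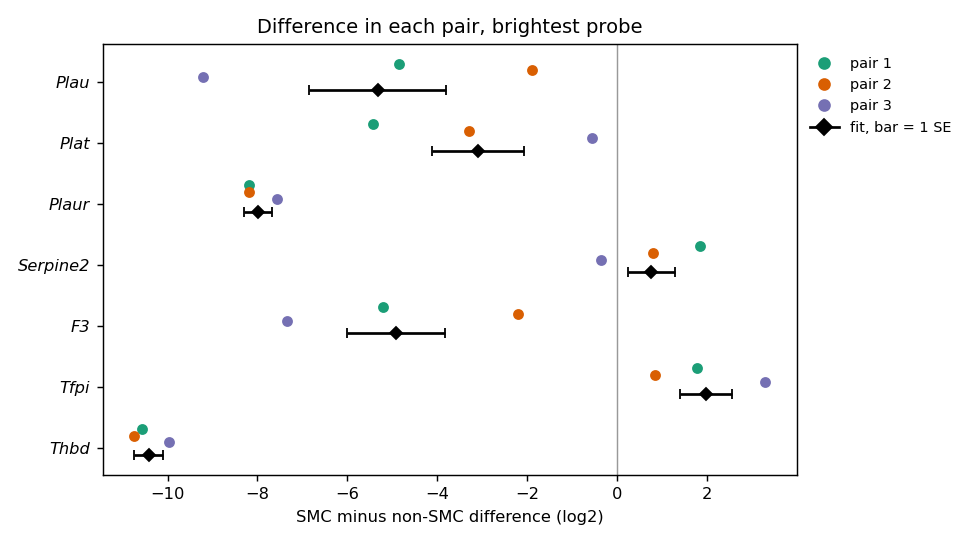
SMC minus non-SMC difference (x axis, log2) of the brightest probe of the 7 tested genes in each of the 3 pairs (coloured points), with the fitted difference and its SE (black). Thbd lies between -10.74 and -9.97 and Plaur between -8.19 and -7.56, while Plau spans -9.22 to -1.90.

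The pairs did not order the genes alike. Pair 3 had the largest negative difference for Plau (-9.22) and F3 (-7.35) and the largest positive one for Tfpi (3.29), but the smallest difference of the 3 pairs for Plat (-0.56). Pair 2 had the smallest difference for Plau (-1.90), F3 (-2.22) and Tfpi (0.84). Non-SMC line 3 had the highest Plau, Plaur, Serpine2, F3 and Procr signals of the 6 lines with their brightest probes, and the lowest Thbd signal among the non-SMC lines. It was also the line with the high leukocyte marker mean of -2.94, and the part of those cells in these signals was not tested. Non-SMC line 2, whose neuroendocrine marker mean of 2.91 was the nearest of its group to that of the SMC lines, had the lowest Plau, Plat and F3 signals among the non-SMC lines. Its Plaur and Thbd signals were not the lowest of its group.

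**Figure D3:**
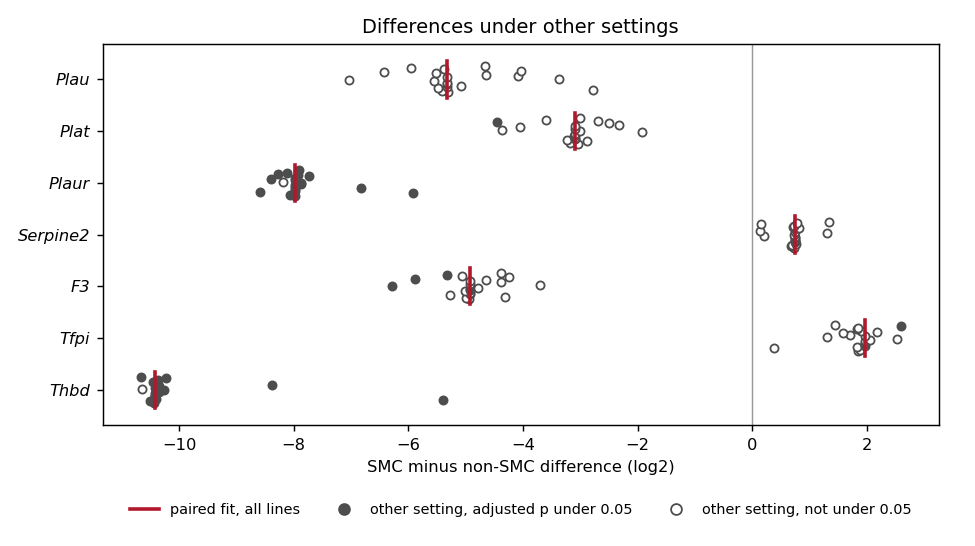
SMC minus non-SMC difference (x axis, log2) of each tested gene under every other processing setting or left-out line (points, filled where the adjusted p was under 0.05), with the fit on all lines as a red bar. Plaur and Thbd keep filled points in 20 of 21 and 19 of 20 settings; Serpine2 and Plau have none.

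The named features closest to each gene were found by the root mean square difference of centred log2 signals over the 6 arrays, among 13315 candidates. For Plaur these were Vwa5a (0.28) and the gap junction gene Gja1 (0.40), and for Thbd the receptor tyrosine kinase Axl (0.36) and Antxr2 (0.40). Plau was closest to Gcnt2 (0.58) and Smim3 (0.60), Plat to Zfp652os (0.38) and H2-M3 (0.44), and F3 to Cmtm7 (0.54) and 4930523C07Rik (0.55). Tfpi was closest to Tbx1 (0.20) and Neurl1b (0.21), and Serpine2 to Gm5617 (0.18) and Nupr1l (0.24). The nearest features of Procr, Mpzl2 and Zfp36l1, were farther away, both at 0.92. These distances describe 6 arrays that share a group difference, and a gene that varies little has near neighbours more easily.

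Other genes of the pathway were read from 6 lists with 50 genes, all on the array. Of these, 29 were tested, 1 was lower, none was higher and 28 did not pass, while 11 were detected on no array. Over all features 3.03% were lower and 0.156% higher, so 1 lower gene among 29 was near the share over all features. Their median difference was -1.04 with 21 of 29 negative, against a median of 0.18 and 41.7% negative over all 19848 features. Since a gene could be tested when only 1 group was detected, these medians cover only the genes that passed the filter.

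Of 7 genes of plasminogen activation and its inhibitors, 4 were tested and none passed, with 2 negative and 2 positive differences and a median of -0.60. Serpini1, or neuroserpin, a serpin that inhibits the tissue-type activator, read 2.69, 3.76 and 3.60 in SMC lines, against -3.02, 2.19 and -1.25 in non-SMC lines. Every SMC line was above every non-SMC line, and the difference was 4.04 ± 0.92 (limma adjusted p = 0.115). Hpn, the membrane serine protease hepsin, had a difference of -1.35 ± 1.00 (adjusted p = 0.434). Plasminogen itself, Plg, was well above background on no array; it encodes the substrate of both activators.

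Among 11 genes of plasminogen and urokinase binding and clearance, all were tested, 1 was lower and 9 had negative differences (median -1.56). The share of lower features over all features was 3.03%. S100a10, which forms a complex with Anxa2 that binds plasminogen and the tissue-type activator, read -5.16, -6.48 and -2.25 in SMC lines, against 5.64, 4.12 and 5.27 in non-SMC lines. SMC line 2 was not well above background, so S100a10 entered the test through its detection in the non-SMC lines alone. The difference of -9.64 ± 0.80 passed (limma adjusted p = 0.02) and was lost without pair 1 (-9.06, adjusted p = 0.0864) or without pair 3 (-10.70, adjusted p = 0.0618). Within the shared slide it was -10.52. Anxa2 and the endocytic receptors Lrp1 and Lrp2 were singled out after their values were seen. Anxa2 read -4.68, -1.44 and 0.04 in SMC lines and 4.94, 3.30 and 4.57 in non-SMC lines, a difference of -6.30 ± 1.20 (adjusted p = 0.094). It passed without the pair term (adjusted p = 0.0415), a fit in which 4.91% of all features were lower. Lrp1 had a difference of -4.72 ± 0.83 (adjusted p = 0.0841). Lrp2, detected in 1 of 3 SMC lines, had one of -4.12 ± 0.57 (adjusted p = 0.0527) and passed in that same fit without the pair term (adjusted p = 0.033).

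Of 16 procoagulant factors, 6 were detected on no array and 4 were tested, none of which passed, with a median of 2.16. Vwf, the carrier of factor VIII, had a difference of 3.27 ± 2.11 (limma adjusted p = 0.378). It read 4.39, 3.47 and -1.88 in SMC lines and -4.84, 3.57 and -2.55 in non-SMC lines, so the groups overlapped. F7, the ligand of tissue factor, had a difference of 2.50 ± 0.91 (adjusted p = 0.189). Of 7 anticoagulant genes 4 were tested and none passed (median -2.59). Anxa5, which binds exposed phosphatidylserine, had a difference of -4.67 ± 0.64 (adjusted p = 0.0523). It passed in the fit without the pair term (adjusted p = 0.00794), where 4.91% of all features were lower. Pros1, protein S, the cofactor of activated protein C, had a difference of -2.78 ± 0.72 (adjusted p = 0.129).

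Of 4 protease-activated receptors, 1 was tested. F2r, a thrombin receptor, read 3.47, -4.42 and -1.06 in SMC lines and 2.22, 3.76 and 4.97 in non-SMC lines, with overlapping groups and a difference of -4.32 ± 2.02 (limma adjusted p = 0.258). All 5 genes of the vitamin K cycle and factor secretion were tested and none passed, with a median of -0.51. Ggcx, the vitamin K dependent carboxylase, had a difference of -1.65 ± 0.40 (adjusted p = 0.12), and Mcfd2, a cargo receptor subunit for coagulation factors, one of -1.26 ± 0.39 (adjusted p = 0.153).

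**Figure D4:**
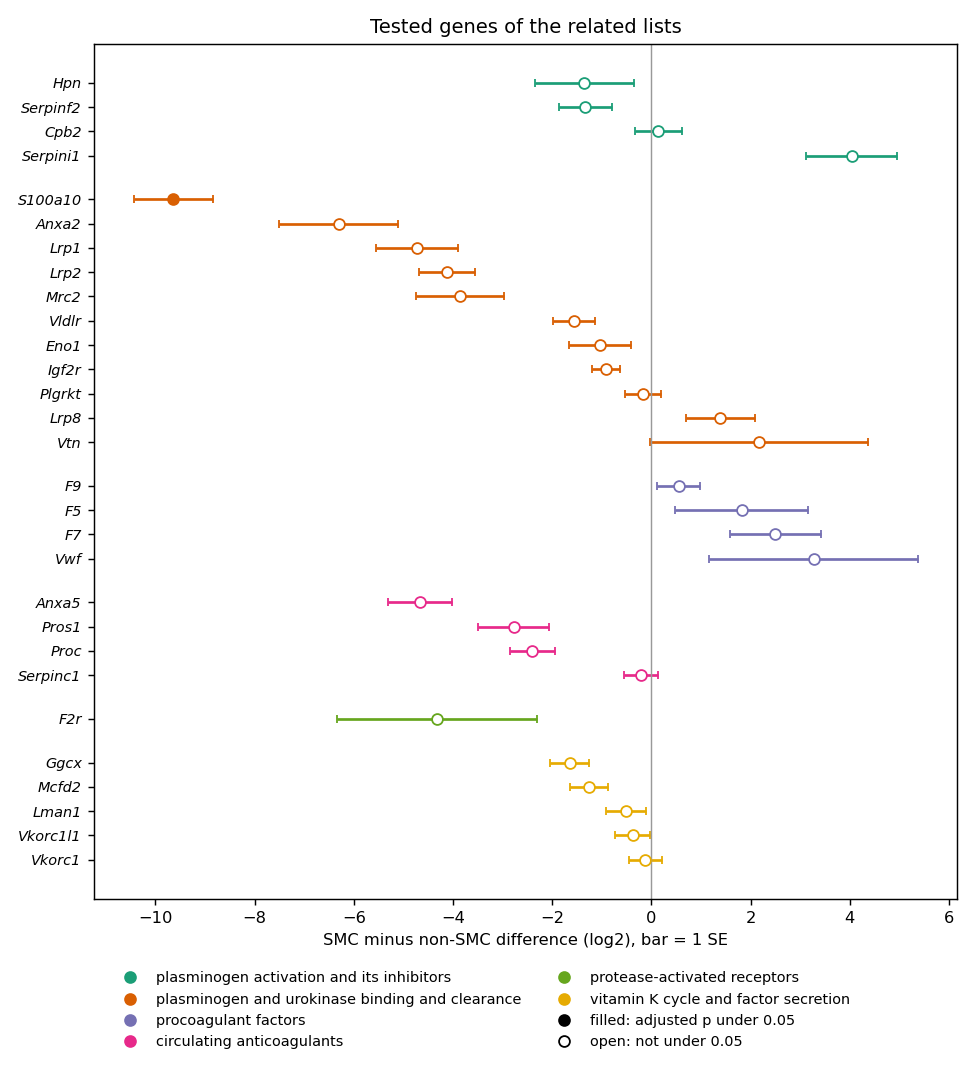
SMC minus non-SMC difference with its SE (x axis, log2) of the 29 tested genes of the 6 related lists, coloured by list and filled where the adjusted p was under 0.05. S100a10 at -9.64 is the filled point.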

How the data were processed

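RNA of 6 lines, 3 SMC and 3 non-SMC, was measured on single-colour (Cy3) arrays. Per the file headers, the spot values come from Feature Extraction 10.7.3.1, which the submitters' processing notes give as 10.7, the array design is 014868 and the build mm9. The deposited intensity used is the processed signal, background-subtracted within the array per the file headers; the deposited mean and background intensity of each spot were left as scanned. A deposited table of the whole series gives log2 values with a median of 5.06 in every column; each column correlated at 0.996 to 0.999 with log2 of its own array's signal and at most 0.96 with another's. It is not centred per gene, and any further step by the authors is not given in the sources used here.

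After 1639 control spots and all outlier spots were dropped, spots of a probe were averaged. Log2 signals minus the array's 75th percentile (485 to 696 intensity units) were used. Symbols came from accessions matched to a RefSeq table (27479 of 41174 probes); 13695 probes stayed unnamed, and 50 had no usable spot on an array. The filter kept 26684 probes, of which 19848 features (13322 named) were tested with limma 3.58.1 in R 4.3.3 (lmFit and eBayes, pair and group, two-sided, Benjamini-Hochberg adjustment, 2 residual and 2.07 prior degrees of freedom). Where 5153 genes had several kept probes, the brightest stood for the gene. Before adjustment, 2964 features had p under 0.05 with a higher signal in SMC and 2338 with a lower one. The labels give the pairs; the lines' deviations from their group's mean had correlations of -0.01, 0.14 and 0 within pairs 1 to 3, and at -0.15 to 0.13 between pairs. The labels do not say that lines came from separate animals, so p-values measure the spread between these lines.

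Named genes were the 9 genes, up to 4 genes past the threshold in each list or otherwise the 2 with the largest difference, and for each of the 9 genes its 2 nearest features. Anxa2, Lrp1 and Lrp2 are exceptions. A list item is not reported here and was left out of the list counts. The genes and lists were chosen with earlier results of these data known. The alternatives replaced the scaling (median or quantile), the background correction (normexp, offset 50), the values (deposited log2) or the filter (none, or detection on all arrays). Others were dim signals at the floor, the mean of a gene's probes, every probe a feature, no pair term and slide as a block beside the pair. The rest were the shared slide alone without the pair term, and leaving out pairs or lines. Leaving out single lines without the pair term was added after the data were seen.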

Additional observations from a re-analysis of the deposited data

How the results depend on the processing

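The directions of all 7 tested genes held in every setting run for them (20 or 21 each), but not all of these could change a direction. With no filter, every probe a feature, no replicate block or the shared slide as a block, each gene kept the difference of the paired fit. The same held for the genes that could be tested with detection required on all arrays. The labels give the pairs, and the paired fit called 31 features higher and 602 lower, with 2 of the 9 genes and 1 list gene lower. Among list genes 2 were lower with quantile normalization, the deposited values or the mean of a gene's probes. With no replicate block the counts were 274 higher, 975 lower and 4 list genes lower, and F3 joined Plaur and Thbd. With median scaling 239 were higher and 974 lower, with 1 list gene higher and 5 lower, and the median difference of all features was 0.10 against 0.18. Normexp gave 54 higher and 5 list genes lower, with a median difference of 0.08. With no filter there were 7 higher and 383 lower of 32406 features. Detection required on all arrays gave 4 higher and 135 lower of 16358, 1 of the 9 genes (Plaur) and 0 list genes; Thbd, Plau and Tfpi could not be tested there. With every probe a feature, 54 were higher and 3 list genes lower. With the shared slide against the others as a block 9 were higher and 3 list genes lower. On the shared slide 20 were higher and 3 list genes lower. Over the 9 fits that left out a pair, or a line without the pair term, 0 to 1559 features were higher and 0 to 1147 lower, 0 to 1 of the 9 genes higher and 0 to 3 lower, and 0 to 3 list genes higher and 0 to 6 lower. The fit without pair 3 gave the zeros for lower features (limma, with 924 higher and 1743 lower before adjustment at p under 0.05), and that without the pair term and non-SMC line 2 the highest counts. The cause was not tested, except that fewer features or lines enter some fits. Leaving out 1 pair leaves 2, and signals near background limit Thbd, Procr, Tfpi2, Tfpi and the second Plau probe.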
